A study of Mus musculus with 9 samples.

Results

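The genes described are 10 mouse heat shock protein genes, Hspa1a, Hspa1b, Hspb1, Dnajb1, Hsph1, Hsp90aa1, Hspa8, Hsp90ab1, Hspd1 and Hspe1. They were chosen by symbol, with no measured value in the rule, and all 10 were found among the 38215 genes of the deposited table. Earlier results of these data were known when they were chosen. For the comparison the first 6 were taken as inducible members and the last 4 as constitutive members, a division from general knowledge. RNA-seq was done on bone marrow of C57BL/6J mice at a terminal time point. From it, LSK cells that carried GFP as well as mCherry had been sorted; LSK stands for Lineage- Sca1+ Kit+, the stem and multipotent progenitor fraction of blood formation. The EV group had 5 libraries, numbered mouse 1 to 5, with the genotype Jak2V617F. The sgZrsr2 group had 4 libraries, numbered mouse 1, 2, 3 and 5, with the genotype Jak2V617F-sgZrsr2. Both groups thus carried Jak2V617F, an activating change in the kinase Jak2 known from myeloproliferative neoplasms, and both had received tamoxifen. The comparison asked what loss of Zrsr2, a factor of the minor spliceosome, adds in cells that already carry Jak2V617F. EV and the prefix sg are not spelled out in the labels, which also give no age, no Cre driver and no statement on pooling, nor that each number was a separate animal. The p-values therefore measure the spread between these libraries.

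Heat shock proteins are molecular chaperones that bind unfolded proteins and help them to fold, to assemble or to be degraded. Proteotoxic stress releases heat shock factor 1 (Hsf1), which binds heat shock elements, inverted repeats of GAA units upstream of its target genes, and drives the inducible members. The constitutive members fold proteins in unstressed cells as well, in the cytosol (Hspa8, Hsp90ab1) and in mitochondria (Hspd1, Hspe1). In haematopoietic progenitors, Hsp90 proteins hold client kinases such as Jak2.

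The upstream sequences are printed because they show where the letters of the heat shock element occur and how alike the Hspa1a and Hspa1b copies are. They come from RefSeq (GRCm38.p6), whose promoter table held 7 of the 10 members, and are given 5′ to 3′ on the strand of the gene, with matches to GAANNTTC or TTCNNGAA in capitals. Hspa1a is shown over the 250 bases before its start (chr17:34972157-34972406, minus strand) and Hspb1 over bases 130 to 61 before its start (chr5:135887789-135887858, plus strand). Hspa1b is shown over the same 250 bases (chr17:34959239-34959488, minus strand). Hsph1 (chr5:149636350-149636379, minus strand) and Hspe1 (chr1:55088053-55088082, plus strand) are shown over 30 bases around their matches.
Hspa1a: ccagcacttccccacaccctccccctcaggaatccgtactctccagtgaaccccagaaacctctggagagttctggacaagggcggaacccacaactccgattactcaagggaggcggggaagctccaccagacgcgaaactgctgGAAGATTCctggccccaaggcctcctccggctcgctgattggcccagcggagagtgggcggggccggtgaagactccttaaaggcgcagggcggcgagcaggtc
Hspa1b: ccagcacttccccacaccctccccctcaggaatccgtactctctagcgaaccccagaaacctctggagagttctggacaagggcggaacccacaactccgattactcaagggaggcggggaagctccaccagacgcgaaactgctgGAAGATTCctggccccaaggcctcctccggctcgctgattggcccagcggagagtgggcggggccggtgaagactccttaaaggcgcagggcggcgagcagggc
Hspb1: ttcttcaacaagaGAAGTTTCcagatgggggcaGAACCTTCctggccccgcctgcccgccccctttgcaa
Hsph1: ggtagaatctTTCTCGAAggctcgagaaga
Hspe1: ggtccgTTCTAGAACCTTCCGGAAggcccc

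Both letter patterns read the same on either strand. In the 250 bases before the start, GAANNTTC was found in 6.69% and TTCNNGAA in 7.17% of 32851 RefSeq promoters, and either in 12.8%. Hspa1a and Hspa1b each held GAANNTTC 104 bases before the start, and their 250 upstream bases differed at 3 positions. Hspb1 held GAANNTTC 117 and 97 bases before its start, and Hsph1 held TTCNNGAA 33 bases before its upstream start. The matches upstream of Hspe1 overlap and form runs of 3 alternating units (GAA, TTC, GAA or TTC, GAA, TTC, each with NN between units), each pattern the reverse complement of the other. Such a run was found in 0.466% of promoters. Hspe1 and Hspd1 are neighbours on opposite strands, with the Hspe1 start and the second Hspd1 start 215 bases apart, so the same run also lies upstream of that Hspd1 start. Neither Dnajb1 entry nor the first Hspd1 entry held a match. Entries for Hspa8, Hsp90aa1 and Hsp90ab1 were not used here. A match describes letters and does not show that a factor bound there.

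The libraries held 23238264 to 45585531 expected counts. Levels are given as CPM, the count of a gene scaled to the library size, after TMM correction for library composition. Zrsr2 was at 50.6 to 62.2 CPM in the EV libraries and 31.7 to 44.4 CPM in the sgZrsr2 libraries, with no overlap. All 10 LSK marker genes were detected in every library, among them Kit at 247 to 632 CPM and Cd34 at 544 to 705 CPM. Levels of markers of other cell types differed between libraries. The summed level of 9 erythroid markers was 11.8, 10.6, 5.39, 13.7 and 77.5 CPM across EV mice 1 to 5, against 11.98, 9.08, 137 and 104 CPM in sgZrsr2 mice 1, 2, 3 and 5. Among these, Car1, Hba-a2, Alas2 and Slc4a1 were at 0 in at least 1 library. The summed level of 9 megakaryocyte markers was 229 to 442 CPM in EV and 447 to 621 CPM in sgZrsr2 libraries, without overlap. Gp6 and Ppbp were at 0 in some libraries. Itga2b and Selp were the highest of these markers in every library, so the sum mainly reflects them. For each of the 8 markers tested singly, the groups overlapped. Pf4, Vwf, Gp1bb, Gp9 and Gp5 were highest in EV mouse 5 and sgZrsr2 mice 3 and 5. In sgZrsr2 mice 1 and 2 each of them was below its level in EV mouse 5. Other markers of the list departed from this pattern. Selp was lowest in EV mouse 5 (78.7 CPM) and highest in EV mouse 3 (270 CPM), with 222 and 229 CPM in sgZrsr2 mice 1 and 2. Itga2b was at 263 CPM in EV mouse 4, above EV mouse 5 (199 CPM) and sgZrsr2 mouse 3 (222 CPM). Ppbp was at 0.935 CPM in sgZrsr2 mouse 1, above EV mouse 5 (0.727 CPM). The part of these markers in the differences between the groups was not tested. Because these are bulk samples, fewer cells of a type and less RNA per cell cannot be told apart.

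The most variable members were Hspa1a and Hspa1b, which encode the stress-inducible HSP70 proteins. Hspa1a (ENSMUSG00000091971; chromosome 17, 34969199 to 34972154, minus strand; positions on GRCm38) had levels of 34.9, 121, 56.0, 33.1 and 15.4 CPM across EV mice 1 to 5. In sgZrsr2 mice 1, 2, 3 and 5 it was at 33.0, 27.7, 9.46 and 2.45 CPM. The highest value belonged to EV mouse 2 and the lowest to sgZrsr2 mouse 5, and the groups overlapped. The means were 52.0 ± 40.9 CPM (SD, n = 5) in EV and 18.2 ± 14.5 CPM (SD, n = 4) in sgZrsr2. Its log2 fold change of -1.53 (SE 0.72) did not pass the threshold (edgeR quasi-likelihood test, Benjamini-Hochberg adjusted p = 0.714). It was -0.95 without EV mouse 2, and a two-sided exact permutation test of the means gave p = 0.111.

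Hspa1b (ENSMUSG00000090877; chromosome 17, 34956436 to 34959238, minus strand) was at 27.2, 87.8, 77.5, 30.1 and 16.5 CPM across EV mice 1 to 5. Its levels in sgZrsr2 mice 1, 2, 3 and 5 were 23.7, 13.4, 9.32 and 4.15 CPM. Mice 2, 3 and 5 lay below every EV library, while sgZrsr2 mouse 1 lay above EV mouse 5. The sgZrsr2 mean of 12.6 ± 8.30 CPM (SD, n = 4) was 26.5% of the EV mean of 47.8 ± 32.4 CPM (SD, n = 5). The log2 fold change of -1.93 (SE 0.59) had an unadjusted p of 0.00759 and an adjusted p of 0.714 (edgeR quasi-likelihood test, Benjamini-Hochberg). It lay between -2.43 and -1.58 when single libraries were left out, and the two-sided exact permutation test gave p = 0.0635.

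The coding sequences of Hspa1a and Hspa1b were 99.4% identical, with 11 of 1929 aligned positions different. Of the 64-base stretches of Hspa1a transcripts, 55.2% also occurred in Hspa1b, so the division of reads between the pair is an estimate of the authors' counting. Hspa1a took 37.1% to 67.4% of the pair's counts per library. Hspa1l also shared 192 stretches with Hspa1a and 147 with Hspa1b. In sgZrsr2 mouse 5 it was at 4.09 CPM, above the 2.45 CPM of Hspa1a. With Hspa1l added to the pair, the log2 fold change was -1.60 (SE 0.58, edgeR adjusted p = 0.714). The sum of Hspa1a and Hspa1b alone does not depend on the division between them. The sum was 62.1, 208, 134, 63.2 and 31.9 CPM across EV mice 1 to 5, against 56.8, 41.1, 18.8 and 6.59 CPM in sgZrsr2 mice 1, 2, 3 and 5. The highest library exceeded the lowest 31.6-fold. Group means were 99.8 ± 71.2 CPM (SD, n = 5) for EV and 30.8 ± 22.4 CPM (SD, n = 4) for sgZrsr2, with a log2 fold change of -1.70 (SE 0.65, edgeR adjusted p = 0.714) and a two-sided exact permutation p of 0.111. The 3 libraries with the lowest sums, EV mouse 5 and sgZrsr2 mice 3 and 5, were also the 3 with the highest erythroid marker sums. Without these 3 libraries the log2 fold change was -1.001 for Hspa1a and -1.58 for Hspa1b. Every value without these 3 libraries, here and below, rests on mice 1 and 2 alone in the sgZrsr2 group. Those 2 libraries were close to each other, and their independence was not tested. The part of the erythroid markers in the difference was not tested.

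Hspb1 (ENSMUSG00000004951; chromosome 5, 135887919 to 135889563, plus strand) encodes a small heat shock protein that binds unfolding proteins without ATP. It was near the limit of detection, with 8 to 42 counts per library. Its level was 0.576, 0.707, 1.25, 0.932 and 0.349 CPM across EV mice 1 to 5, against 1.42, 1.36, 0.316 and 0.223 CPM in sgZrsr2 mice 1, 2, 3 and 5. The sgZrsr2 group thus held both the 2 highest and the 2 lowest libraries. Hspb1 was the only member with a log2 fold change above 0, at 0.10 (SE 0.61, edgeR adjusted p = 0.973; two-sided exact permutation p = 0.825), and its sign turned when single libraries were left out (-0.31 to 0.42). Without EV mouse 5 and sgZrsr2 mice 3 and 5 it was 0.69.

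Dnajb1 (ENSMUSG00000005483; chromosome 8, 83608175 to 83611902, plus strand), the HSP40 protein that delivers substrates to HSP70, was at 178, 205, 266, 154 and 126.3 CPM across EV mice 1 to 5. In sgZrsr2 mice 1, 2, 3 and 5 it was at 198, 186, 159 and 118 CPM. Mouse 5 was the lowest library of each group, and the groups overlapped over most of their range. Its log2 fold change was -0.17 (SE 0.22, edgeR adjusted p = 0.842; two-sided exact permutation p = 0.524) and was -0.01 without EV mouse 3 and -0.06 without EV mouse 5 and sgZrsr2 mice 3 and 5.

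Hsph1 (ENSMUSG00000029657; chromosome 5, 149614287 to 149636376, minus strand) encodes HSP110, a nucleotide exchange factor of HSP70. EV mice 1 to 5 had 74.8, 79.5, 58.6, 70.5 and 91.9 CPM, and sgZrsr2 mice 1, 2, 3 and 5 had 36.6, 39.2, 74.0 and 67.8 CPM. Only sgZrsr2 mice 1 and 2 lay below the EV range, and these were the 2 sgZrsr2 libraries with the higher Hspa1a and Hspa1b levels. They also had the largest mitochondrial shares, 4.04% and 4.07% of counts against 2.27% to 3.36% in the other 7 libraries, and the part of this in the difference was not tested. For Hsph1 the log2 fold change was -0.46 (SE 0.22, edgeR adjusted p = 0.714; two-sided exact permutation p = 0.111) and was -0.89 without EV mouse 5 and sgZrsr2 mice 3 and 5. The latter fit kept only mice 1 and 2 of the sgZrsr2 group, the libraries with the lowest Hsph1 levels.

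Hsp90aa1 (ENSMUSG00000021270; chromosome 12, 110690605 to 110702728, minus strand), the inducible cytosolic HSP90, was at 1268, 1365, 2036, 1800 and 1379 CPM across EV mice 1 to 5. In sgZrsr2 mice 1, 2, 3 and 5 it was at 1408, 1387, 876 and 1098 CPM. The sgZrsr2 mice 1 and 2 lay among the EV libraries and mice 3 and 5 below all of them. The means were 1569 ± 331 CPM (SD, n = 5) and 1192 ± 254 CPM (SD, n = 4), a log2 fold change of -0.40 (SE 0.19, edgeR adjusted p = 0.714; two-sided exact permutation p = 0.159). Without EV mouse 5 and sgZrsr2 mice 3 and 5 it was -0.21.

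Hspa8 (ENSMUSG00000015656; chromosome 9, 40800984 to 40805200, plus strand), the constitutive cytosolic HSP70, was at 3484, 3423, 4320, 3787 and 2886 CPM across EV mice 1 to 5. In sgZrsr2 mice 1, 2, 3 and 5 it was at 3061, 2953, 2623 and 2556 CPM. The groups overlapped through EV mouse 5 alone, which lay below sgZrsr2 mice 1 and 2. The means were 3580 ± 526 CPM (SD, n = 5) and 2798 ± 246 CPM (SD, n = 4), with a two-sided exact permutation p of 0.0317 that was not adjusted for the other genes. The log2 fold change of -0.36 (SE 0.13, edgeR adjusted p = 0.714) lay between -0.42 and -0.29 with single libraries left out. Of the 64-base stretches of Hspa8, 70.5% also occurred in other genes. Hspa8 held 97.8% to 98.2% of the summed counts of 3 of the 11 genes concerned, itself included, and the others were not analysed here.

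Hsp90ab1 (ENSMUSG00000023944; chromosome 17, 45567775 to 45573271, minus strand), the constitutive cytosolic HSP90, was at 3851, 4263, 5858, 4889 and 4141 CPM across EV mice 1 to 5. In sgZrsr2 mice 1, 2, 3 and 5 it was at 4724, 4651, 2964 and 3736 CPM. The group split into 2 libraries above the EV mean of 4600 CPM and 2 below the lowest EV library. Between the groups, the log2 fold change was -0.20 (SE 0.17, edgeR adjusted p = 0.778; two-sided exact permutation p = 0.333), and was -0.07 without sgZrsr2 mouse 3 and -0.0026 without EV mouse 5 and sgZrsr2 mice 3 and 5.

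The mitochondrial chaperonin is made of HSP60, encoded by Hspd1, and its lid HSP10, encoded by Hspe1. Hspd1 (ENSMUSG00000025980; chromosome 1, 55077835 to 55088243, minus strand) was at 388, 418, 664, 650 and 445 CPM across EV mice 1 to 5, against 423, 399, 275 and 352 CPM in sgZrsr2 mice 1, 2, 3 and 5. EV mice 3 and 4 stood above all others, and EV mice 1 and 2 lay among the sgZrsr2 libraries. Hspd1 had a log2 fold change of -0.50 (SE 0.20, unadjusted p = 0.0281, edgeR adjusted p = 0.714; two-sided exact permutation p = 0.111). Hspe1 (ENSMUSG00000073676; chromosome 1, 55088132 to 55091307, plus strand) was at 97.6, 103, 125, 157 and 110.5 CPM across EV mice 1 to 5, against 94.0, 96.2, 69.1 and 81.9 CPM in sgZrsr2 mice 1, 2, 3 and 5. Every sgZrsr2 library lay below every EV library, by a narrow margin between sgZrsr2 mouse 2 and EV mouse 1. The log2 fold change of Hspe1 was -0.48 (SE 0.16, unadjusted p = 0.0124, edgeR adjusted p = 0.714; two-sided exact permutation p = 0.0238). Without EV mouse 5 and sgZrsr2 mice 3 and 5 the values were -0.36 for Hspd1 and -0.34 for Hspe1.

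**Figure D1:**
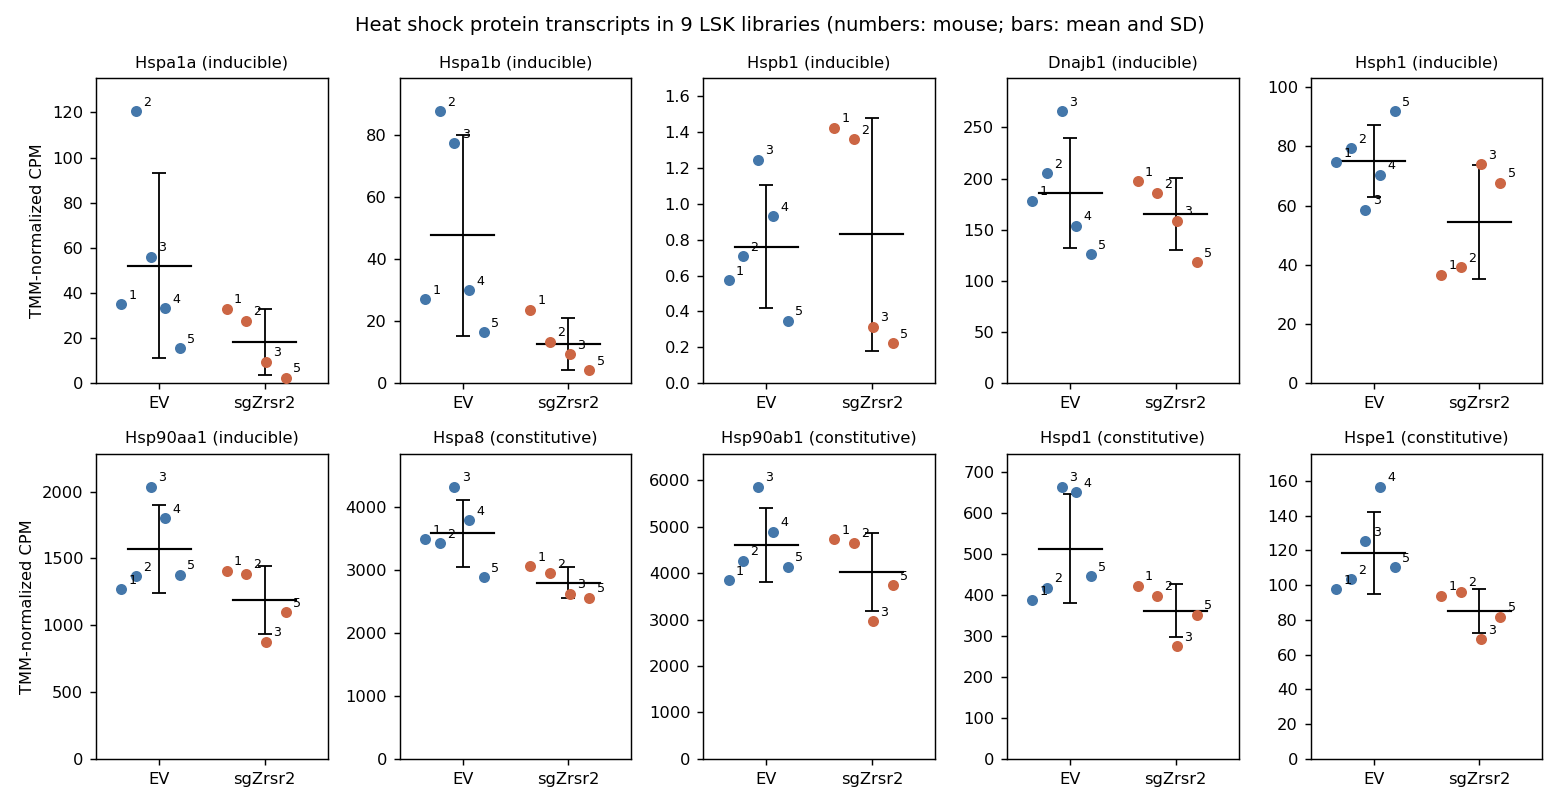
TMM-normalized CPM (vertical axis, linear, from 0, a scale per gene) of the 10 heat shock protein genes in EV (blue) and sgZrsr2 (orange) libraries, with points numbered by mouse and bars for the mean and SD (n = 5 and 4). The groups overlap for every gene except Hspe1. Within sgZrsr2, mice 1 and 2 lie above mice 3 and 5 in every gene except Hsph1, where they lie below.

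Of the 10 members, 0 passed an adjusted p of 0.05, as did 0% of the 14944 genes tested (edgeR quasi-likelihood test). At an unadjusted p under 0.05, 4 members were lower with sgZrsr2, namely Hspa1b, Hspa8, Hspd1 and Hspe1, where 2.98% of all genes were lower, 3.87% were higher and 6.85% differed in either direction. The exact permutation p was under 0.05, not adjusted, for 2 members, Hspa8 and Hspe1, both lower with sgZrsr2, where 3.33% of all genes were lower and 7.82% differed in either direction by the same test. DESeq2 called 16 genes, with no member among them. The log2 fold change was below 0 for 9 of 10 members, against 51.5% of all genes, and the median was -0.43 for the members and -0.01 for all genes. Groups did not overlap for 1 member, Hspe1, where 1.32% of all genes were lower, 1.75% higher and 3.06% either without overlap. The division of reads with near-identical genes makes Hspb1, Hsp90aa1 and Hspd1 less certain. Hspb1 held 73.3% to 100% of the counts summed with the 1 gene that shares 64-base stretches with it. Hsp90aa1 held 91.0% to 91.6% of the sum over 3 of 4 such genes and Hspd1 82.9% to 85.0% of the sum over 3 of 7, each count including the member, while Dnajb1 and Hsph1 shared none. The members also varied together across libraries, so they are not independent observations.

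**Figure D2:**
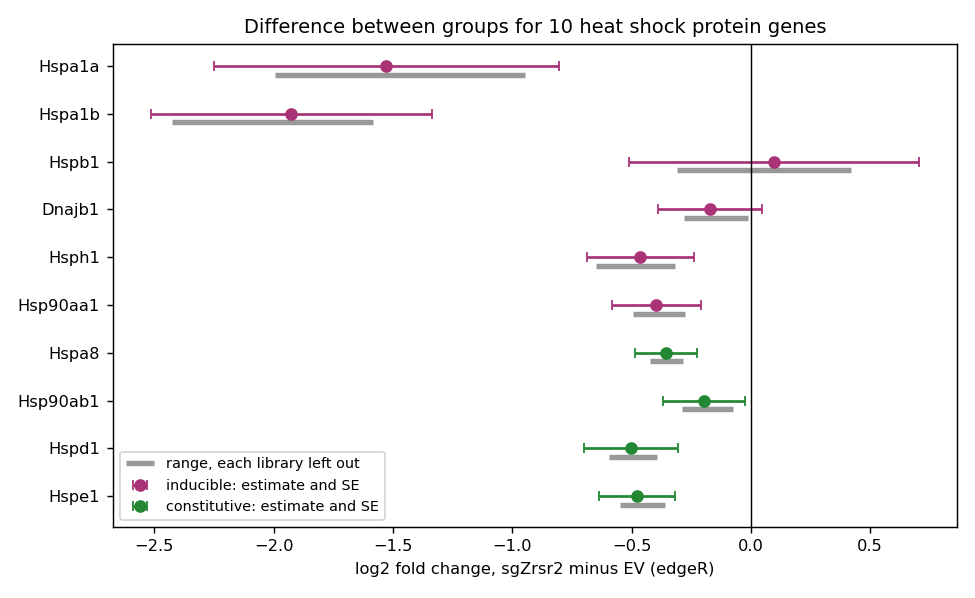
Log2 fold change, sgZrsr2 minus EV (horizontal axis, edgeR), of the 10 genes, with its SE as thin bars and the range over fits with each library left out as grey bars. Hspa1a and Hspa1b have the estimates farthest from 0 and the widest grey bars, and the bars of Hspb1 span 0.

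The median log2 fold change was -0.43 for the 6 inducible and -0.42 for the 4 constitutive members. The inducible members ranged from -1.93 to 0.10 and the constitutive ones from -0.50 to -0.20, so the inducible group held both the lowest and the highest estimates. In each library, the mean log2 CPM of the inducible members minus that of the constitutive members was taken as a description, with no test. It was -4.18, -3.57, -4.00, -4.50 and -4.67 across EV mice 1 to 5, against -4.19, -4.35, -4.55 and -5.40 in sgZrsr2 mice 1, 2, 3 and 5. EV mouse 2 had the highest and sgZrsr2 mouse 5 the lowest value, and the other libraries overlapped. The means were -4.18 ± 0.43 (SD, n = 5) and -4.62 ± 0.54 (SD, n = 4), a difference of -0.44 that was smaller than the pooled SD of 0.48. The difference was -0.18 without sgZrsr2 mouse 5, and -0.21 without EV mouse 5 and sgZrsr2 mice 3 and 5.

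**Figure D3:**
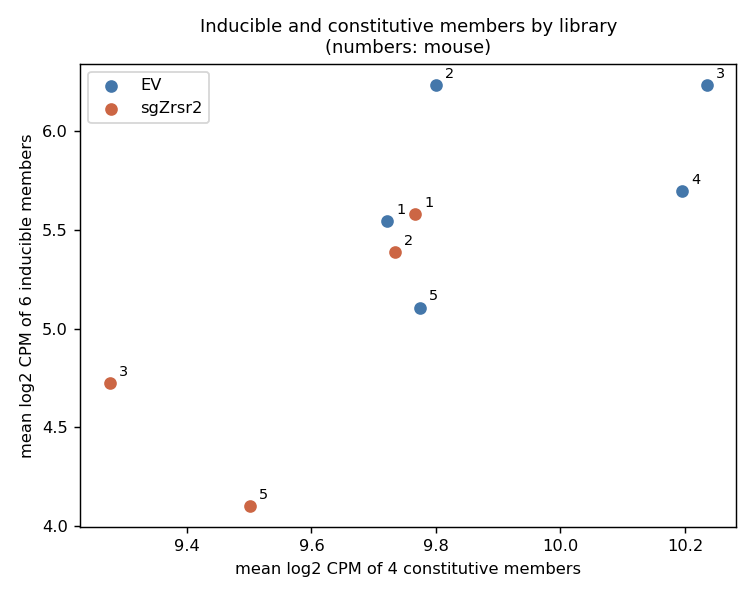
Mean log2 CPM of the 6 inducible members (vertical axis) against that of the 4 constitutive members (horizontal axis) in each library, EV in blue and sgZrsr2 in orange, numbered by mouse. The sgZrsr2 mice 3 and 5 are lowest on both axes, and sgZrsr2 mice 1 and 2 lie beside EV mouse 1.

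Per kilobase of coding transcript, the scale on which genes can be compared, the EV levels followed the order Hsp90ab1, Hspa8, Hsp90aa1, Hspd1, Hspe1, Dnajb1, Hsph1, Hspa1a, Hspa1b and Hspb1. Hsp90ab1 was at 1826 ± 317 and Hspa8 at 1495 ± 220 CPM per kilobase (SD, n = 5), and Hsp90ab1 was the higher of the pair in 9 of 9 libraries. Hsp90aa1 followed at 478 ± 101 CPM per kilobase (SD, n = 5). Hspd1 and Hspe1, at 212 ± 55.0 and 153 ± 30.6 CPM per kilobase (SD, n = 5), differed by slightly more than the larger SD, and Hspd1 was the higher in 9 of 9 libraries. Hsph1, Hspa1a and Hspa1b, at 19.7 ± 3.21, 17.5 ± 13.8 and 17.1 ± 11.6 CPM per kilobase (SD, n = 5), were not separated by their spread, and Hspb1 was lowest at 0.844 ± 0.381. In sgZrsr2 libraries the order of the means was the same. Hsph1 was then at 14.3 ± 5.05, Hspa1a at 6.12 ± 4.90 and Hspa1b at 4.51 ± 2.96 CPM per kilobase (SD, n = 4).

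Most members varied together across the 9 libraries. Of the 45 pairs of members, 39 had a positive Pearson correlation of log2 CPM, with a median r of 0.627. An adjusted p under 0.05 was reached by 17 (exact permutation test over all pairings, Benjamini-Hochberg over 45 pairs). The same counts over pairs of other genes were not computed. Genes outside the family reached r of up to 0.989 (Nop16) with the mean of the constitutive members. The counts are therefore not read as particular to heat shock genes. Hspa1a and Hspa1b had r = 0.945 (exact permutation p = 8.54e-05, adjusted 0.00128) and rho = 0.967 (exact permutation p = 0.000165, adjusted 0.00372), although their shared reads are divided by estimate. Without EV mouse 2 and sgZrsr2 mouse 5, the 2 libraries farthest from the median, r was 0.873. Hsp90aa1 and Hsp90ab1, whose coding sequences were 75.7% identical, had r = 0.961 (exact permutation p = 8.27e-06, adjusted 0.000372) and rho = 0.983 (exact permutation p = 4.96e-05, adjusted 0.00223). Without EV mouse 3 and sgZrsr2 mouse 3 their r was 0.848. The chaperonin pair Hspd1 and Hspe1 had r = 0.950 (exact permutation p = 0.000193, adjusted 0.00217) and rho = 0.867 (exact permutation p = 0.00451, adjusted 0.029), and r was 0.959 without EV mice 3 and 4. On deviations from the group means r was 0.931, 0.985 and 0.920 for these 3 pairs in turn.

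Hsph1 stood apart from the other members. Its 9 pairs had r between -0.712 and 0.089, with 0 of 9 at an adjusted p under 0.05 by the exact permutation test. With Hspb1 it had r = -0.712 (exact permutation p = 0.0312, adjusted 0.0708) and rho = -0.633 (exact permutation p = 0.076, adjusted 0.149), and r was -0.877 without sgZrsr2 mice 3 and 5. Without sgZrsr2 mice 1 and 2, r was -0.436 with Hsp90ab1, -0.363 with Hsp90aa1, -0.454 with Hspa8, -0.367 with Hspd1 and -0.137 with Hspe1. For the pairs with Hspa1a, Hspa1b, Hspb1 and Dnajb1, other libraries were left out. On deviations from the group means, all 9 pairs with Hsph1 had a negative r, from -0.963 to -0.632. In a permutation test over all pairings, 4 had an adjusted p under 0.05. These were the pairs with Hspb1 (adjusted p = 0.00368), Hsp90ab1 (0.0177), Hsp90aa1 (0.0243) and Hspa8 (0.0253), by the same permutation test. It exchanged deviations freely between the groups, although they sum to 0 within each group. These p-values are therefore approximate and may be too small. They were not computed without sgZrsr2 mice 1 and 2, which had the lowest Hsph1 levels. With 5 and 4 libraries, no correlation within a single group was computed.

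**Figure D4:**
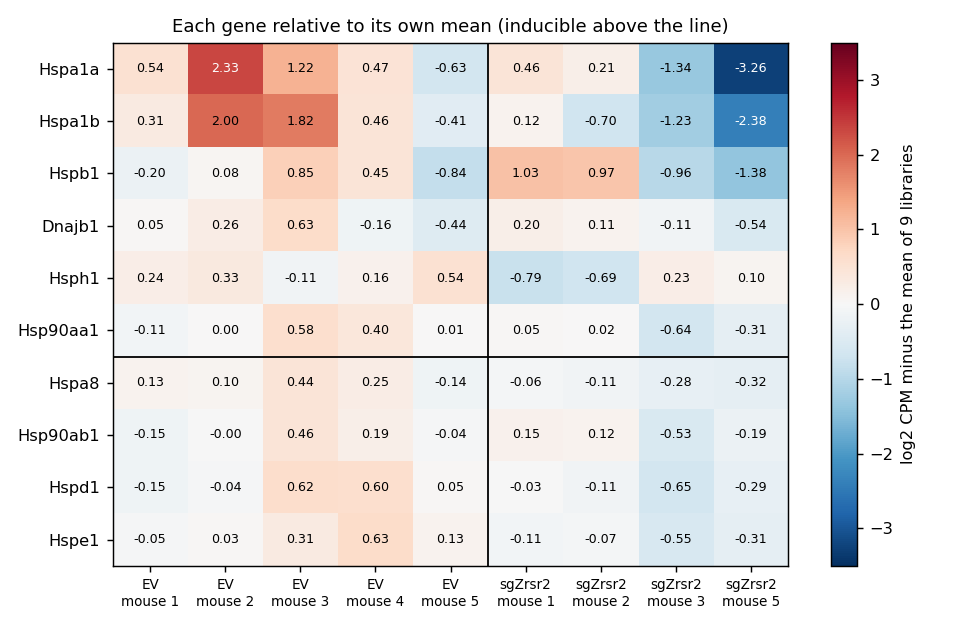
Log2 CPM of each heat shock protein gene (rows, inducible members above the line) in each library (columns) minus the mean of the gene over the 9 libraries, in red above and blue below 0. Hspa1a runs from 2.33 in EV mouse 2 to -3.26 in sgZrsr2 mouse 5, and the Hsph1 row is lowest in sgZrsr2 mice 1 and 2.

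The other genes of the pathway were read from 7 lists with 78 genes, of which 71 were tested. Of these, 62 had a log2 fold change below 0, with a median of -0.20, 8 were lower and 1 was higher at an unadjusted p under 0.05, and 0 passed the adjusted threshold (edgeR quasi-likelihood test). Among all genes tested, 51.5% were below 0, and 2.98% were lower and 3.87% higher at that unadjusted p. The genes of a list were not treated as independent observations, and the lists were chosen with earlier results of these data known. Without EV mouse 5 and sgZrsr2 mice 3 and 5, 48 of 71 were below 0, against 53.7% of all genes tested. The sgZrsr2 group of that fit was mice 1 and 2 alone, which were close to each other. Of the heat shock factors and their regulators, 3 of 5 were tested and 0 had an unadjusted p under 0.05. Hsf1, the factor that drives the inducible members, was at 50.7 ± 3.14 CPM (SD, n = 5) in EV and 48.0 ± 6.85 CPM (SD, n = 4) in sgZrsr2, a log2 fold change of -0.08 (SE 0.11, edgeR adjusted p = 0.864). Hsf2 was at 15.6 ± 0.928 and 15.9 ± 3.32 CPM (log2 fold change 0.03, SE 0.16, edgeR adjusted p = 0.970), and Hsbp1, which binds heat shock factor 1, had a log2 fold change of -0.04.

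Among 14 other HSP70 and HSP40 genes, 12 had estimates below 0, with a median of -0.09, and 3 were lower and 1 higher at an unadjusted p under 0.05. The shares of all genes were 51.5% below 0, 2.98% lower and 3.87% higher. Hspa14, a ribosome-bound HSP70, was at 109 ± 21.2 CPM (SD, n = 5) in EV and 80.5 ± 8.59 CPM (SD, n = 4) in sgZrsr2 (log2 fold change -0.44, SE 0.15). Hspa4l, of the same HSP110 family as Hsph1, had the opposite sign, at 39.2 ± 7.27 CPM (SD, n = 5) and 50.6 ± 1.75 CPM (SD, n = 4), a log2 fold change of 0.37 (SE 0.14). Neither gene's groups overlapped, as was so for 1.32% of all genes in the lower and 1.75% in the higher direction. Both had an edgeR adjusted p of 0.714. Of 19 cochaperones, 17 were below 0 (median -0.15) and 1 was lower at an unadjusted p under 0.05. That gene was Bag2, a nucleotide exchange factor of HSP70, at 24.9 ± 3.05 CPM (SD, n = 5) and 20.2 ± 1.18 CPM (SD, n = 4). Ahsa1, the activator of the HSP90 ATPase, was at 145 ± 25.8 and 117 ± 14.6 CPM (log2 fold change -0.31, SE 0.15). Of the other small heat shock proteins, 4 of 9 were tested, and Cryab (log2 fold change 1.64, SE 0.85) and Hspb11 (-0.35, SE 0.28) did not reach an unadjusted p of 0.05.

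All 8 subunits of the cytosolic chaperonin TRiC had estimates below 0, against 51.5% of all genes, with a median of -0.25 and 0 at an unadjusted p under 0.05. The 2 with the smallest p, Cct4 and Cct8, had log2 fold changes of -0.27 (SE 0.16) and -0.34 (SE 0.20). Of 8 mitochondrial chaperone and protease genes, 6 were below 0 (median -0.23), and the 2 with the smallest p were Dnaja3 (-0.27, SE 0.13), a mitochondrial HSP40, and Grpel1 (-0.30, SE 0.16), a nucleotide exchange factor. All 15 chaperone genes of the endoplasmic reticulum were below 0, with a median of -0.25, and 4 had an unadjusted p under 0.05. Of all genes, 51.5% were below 0 and 2.98% were lower at that p. Without EV mouse 5 and sgZrsr2 mice 3 and 5, the counts below 0 were 7 of 8 for TRiC and 12 of 15 for the endoplasmic reticulum, against 53.7% of all genes. Hspa5, the HSP70 of that compartment, was at 1395, 1338, 2030, 1416 and 908 CPM across EV mice 1 to 5, against 950, 942, 709 and 711 CPM in sgZrsr2 mice 1, 2, 3 and 5. Its groups overlapped through EV mouse 5 alone, and its log2 fold change of -0.78 (SE 0.21) had an unadjusted p of 0.00347 and an edgeR adjusted p of 0.714. Manf, a secreted factor that binds Hspa5, was at 133 ± 21.4 CPM (SD, n = 5) and 101 ± 18.2 CPM (SD, n = 4), a log2 fold change of -0.40 (SE 0.15).

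**Figure D5:**
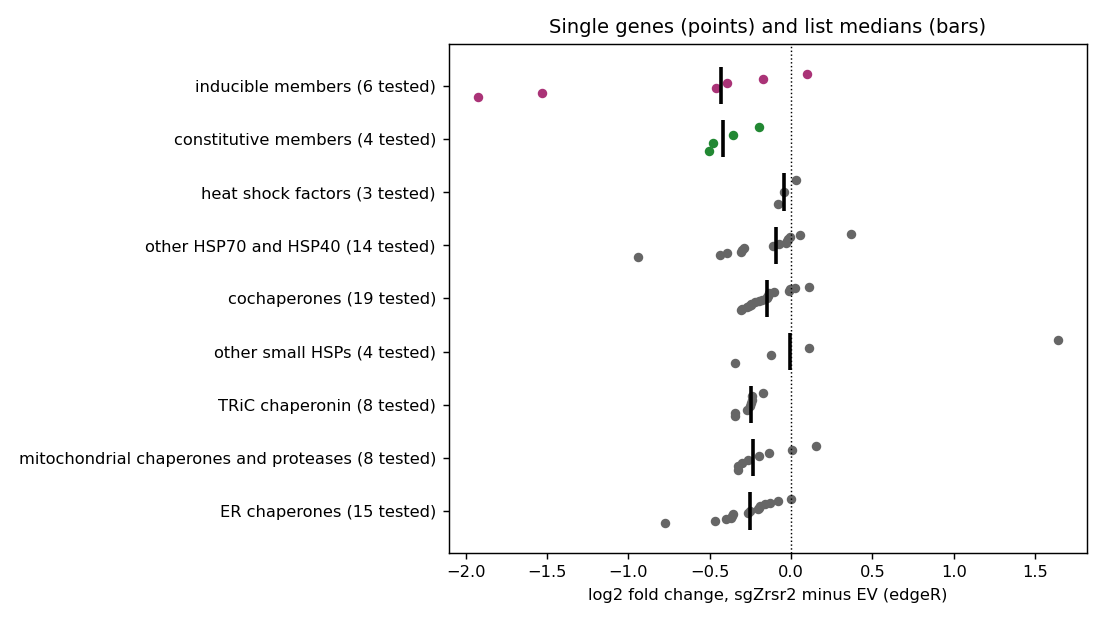
Log2 fold change, sgZrsr2 minus EV (horizontal axis, edgeR), of single genes (points) in the 2 groups of members and the 7 pathway lists, with the median of each list as a bar. Every list median lies below 0, nearest to it for the other small heat shock proteins (-0.01) and the heat shock factors (-0.04).

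Genes outside the family were compared if their mean level reached 10 CPM, which 9621 did. Those most like the mean log2 CPM of the inducible members over the 9 libraries were Naa16 (Pearson r 0.92), Gm10294 (0.917), Amd1 (0.915), Tra2b (0.907) and Egln1 (0.904). For the constitutive members they were Nop16 (0.989), Txnl1 (0.984), Eif3g (0.983), Serbp1 (0.983) and Gm12346 (0.981). Gm12346 shares 47.8% of the 64-base stretches of Hsp90aa1, so reads may be divided between them. These are the highest of many correlations over the same libraries and are given as a description.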

How the data were processed

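RNA from 9 sorted LSK samples was sequenced from 5 ng of total RNA, with selection of polyadenylated RNA and PCR enrichment, per the labels' protocols. The authors deposited RSEM expected counts per Ensembl gene, not normalized. The submitters' processing notes name cutadapt 1.11, RSEM 1.2.30 and GRCm38; the aligner, the annotation and the strandedness are not given in the sources used here. RSEM divides reads that match several genes, so that 9.78% to 13.3% of each library's values had a fractional part.

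The expected counts were rounded and filtered with filterByExpr (minimum count 10, minimum total 15), which kept 14944 genes and 99.93% of the counts. They were scaled by TMM (factors 0.894 to 1.07) and tested with edgeR 4.0.16 (glmQLFit, glmQLFTest, R 4.3.3), with Benjamini-Hochberg adjustment over all genes tested and a threshold of 0.05. Mean CPM of single genes was tested by two-sided exact permutation. Correlations and means used log2 CPM with a prior count of 2. Libraries of 23238264 to 45585531 counts leave genes with few counts, such as Hspb1, imprecise. Alternatives were RLE factors, no filter, DESeq2 1.42.0, limma-voom (limma 3.58.1), the mouse number as a block, leaving out libraries, sgZrsr2 mice 1 and 2 averaged, and sums over genes that share sequence; the sums over genes that share sequence and the alternatives for single levels were added after seeing the data. The sgZrsr2 mice 1 and 2 were close to each other, for example at 2979 and 2949 CPM for Fos. They had 16188 and 16832 genes detected, against 18380 or more in the other libraries. Whether these libraries are independent was not tested, and every p-value from all libraries counts them as separate observations. Shared 64-base stretches were counted in GENCODE M21 transcripts, and promoter sequences were read from RefSeq.

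The genes named were the 10 members, Hsf1, Hsf2, the 2 genes with the smallest p of each pathway list, and the 5 genes most like each group of members. The members and lists were chosen with earlier results of these data known. Hbb-bs, Hbb-bt and Adgre1 of the marker lists were not matched.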

Additional observations from a re-analysis of the deposited data

How the results depend on the processing

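Depth limits Hspb1 above all, with 8 to 42 counts per library, and 5 and 4 libraries limit every comparison. Over 170 alternative estimates of the members' log2 fold changes, 163 kept their sign and their side of the threshold and 7 changed sign, all of them for Hspb1: -0.36 with limma-voom, -0.0347 with the replicate block, -0.09 without EV mouse 5, -0.31 without sgZrsr2 mouse 1, -0.27 without sgZrsr2 mouse 2, -0.29 with sgZrsr2 mice 1 and 2 averaged and -0.0353 when summed with genes that share sequence. Its fits with single libraries left out ran from -0.3108 to 0.4216. The cause was not tested. The count of all genes past the adjusted threshold was 0 with edgeR, 16 with DESeq2 and 1 with sgZrsr2 mice 1 and 2 averaged, and 0 under the other alternatives run. The count of members and of pathway genes past it was 0 under every alternative run. The count of members with an exact permutation p under 0.05 was 2 (Hspa8 and Hspe1) and ran from 0, without any single sgZrsr2 library, to 4, without EV mouse 5. It was 1 without EV mouse 1, 2, 3 or 4. The same test was not run without the 3 libraries highest in erythroid markers, since 4 against 2 libraries cannot reach 0.05.

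Whether equal mouse numbers pair the libraries could not be decided. Same-numbered libraries had correlations of their deviations from the group means of -0.378, -0.204, -0.454 and 0.409 for mice 1, 2, 3 and 5. Of the sgZrsr2 libraries, mouse 5 alone correlated best with its own number. Deviations from the means of so few libraries depend on one another, so these correlations do not settle the pairing. The fit with the replicate block also leaves out EV mouse 4, which has no partner. In it, 333 genes had an unadjusted p under 0.05, against 609 with EV mouse 4 left out and no block, and 1024 with all 9 libraries and no block. With the block, 0 genes passed the adjusted threshold, and 10 of 10 members had a log2 fold change below 0, against 53.9% of all genes.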

Other observations

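Immediate early genes, the transcription factors such as Fos and Jun that respond within minutes to stimulation, were read from a list of 14 genes. Their summed level was 13006, 15060, 17888, 8233 and 6492 CPM across EV mice 1 to 5, against 13894, 14020, 12333 and 5993 CPM in sgZrsr2 mice 1, 2, 3 and 5. EV mice 2 and 3, which had the highest Hspa1a and Hspa1b sums, had the highest sums here, and mouse 5 was lowest in each group on both measures. Other libraries differed in order. The sgZrsr2 mice 1 and 2 lay above EV mice 1 and 4 here, but below them in the Hspa1a and Hspa1b sum (56.8 and 41.1 against 62.1 and 63.2 CPM). Likewise, sgZrsr2 mouse 3 lay above EV mouse 5 here and below it in that sum (18.8 against 31.9 CPM). A relation between the measures was not tested. Of the 14 genes, 9 had a log2 fold change below 0, with a median of -0.02, and 0 had an unadjusted p under 0.05 (edgeR quasi-likelihood test). The summed level of 8 neutrophil markers was 15.6 to 182 CPM in EV and 24.1 to 211 CPM in sgZrsr2 libraries, that of 8 lymphoid markers 4.64 to 40.6 and 5.74 to 16.9 CPM, and that of 4 monocyte and macrophage markers 79.0 to 184 and 81.3 to 169 CPM.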
